A study of Homo sapiens with 6 samples.

Results

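The chromatin regions described here separate 2 leukemia lines that carry the KMT2A-AFF1 fusion, RS4;11 and SEM, from another line, labelled RCH, all under a control shRNA. They were chosen by presence of a peak. A region was called fusion-open where all 4 peak lists of RS4;11 NT and SEM NT and neither list of RCH NT had a peak. It was called RCH-open where both RCH NT lists and none of the other 4 had one. Merging the 6 control lists over chromosomes 1 to 22 gave 110435 regions. Of these, 4032 were fusion-open (3.65% of all regions tested) and 3591 were RCH-open (3.25%), together 7623. Both classes are also given with all 6 lists reduced to the 52301 peaks of highest fold enrichment, the length of the shortest list. That form gave 90184 regions, 2687 fusion-open (2.98%) and 4435 RCH-open (4.92%).

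The assay was ATAC-seq, which reads out where a transposase can reach the DNA and insert sequencing adapters. All lines are B-lineage acute lymphoblastic leukemia lines, with bone marrow as the labelled tissue. NT is the non-targeting control shRNA, and sh2 is an shRNA against NSD2, a histone H3 lysine 36 methyltransferase. The 3 NT samples, 1 per line, gave the classes, and the 3 sh2 samples served as libraries that the rule did not use. Each sample came with 2 peak lists, numbered here in the order of their peak names. Whether they come from separate cultures is not in the labels, and their spread may be technical. RCH is read here as short for RCH-ACV, which the growth protocol lists. Each genotype is thus a single established line or a pair of them. Fusion status cannot be told apart from every other difference between these lines, and no test over samples was run with 2 samples against 1. Intervals given below are exact binomial 95% intervals over regions, which cover counting error only.

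KMT2A-AFF1 joins the DNA-binding end of the methyltransferase KMT2A to AFF1, a part of the transcription elongation machinery. The fusion is known to hold genes of an early, stem-like program active in B-cell precursors. Accessible regions outside promoters are known to differ between cell types and lines more than promoters do. Regions were not assigned to genes here, because no annotation of hg19, the build of the files, was used. The B-lineage identity of the lines was not checked against marker genes for the same reason. Positions below are hg19.

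The lists differed in length, which bears on every count below. On chromosomes 1 to 22, the RS4;11 NT lists held 81527 and 71463 peaks. Those of SEM NT held 52301 and 53475, and those of RCH NT 54740 and 55364. The RS4;11 lists were thus the longest, while those of SEM and RCH were close. Reducing the lists to equal length removed 35.8% and 26.8% of the RS4;11 peaks, 0% and 2.20% of the SEM peaks, and 4.46% and 5.53% of the RCH peaks. The weakest peaks left had a fold enrichment of 5.46 and 4.98 in RS4;11, 1.604 and 3.28 in SEM, and 3.63 and 3.70 in RCH. Fold enrichment is the authors' value per peak, read as a ratio of signal to background within a list. It is not normalized between lists, so values of different lists set side by side show no change in level. Read depth is unknown.

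The 2 classes were of similar size as deposited, and RCH-open was the larger with lists of equal length. Fusion-open regions made up 52.9% of the 7623 members as deposited (interval 51.8 to 54.0). With equal lists they made up 37.7% of 7122 (36.6 to 38.9). The balance therefore turned with the length of the lists. The rule itself is not symmetric, since fusion-open asks for 4 peaks and 2 absences and RCH-open for 2 peaks and 4 absences. Leaving out 1 RCH list relaxes that demand, and RCH-open then grew to 7166 (without list 1) or 9195 (without list 2). Fusion-open grew to 6809 without RCH list 2.

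Of the fusion-open regions as deposited, 2541 (63.0%) were fusion-open with equal lists, and they made up 94.6% of that class. Of the RCH-open regions as deposited, 3249 (90.5%) stayed RCH-open, and they made up 73.3% of the larger class. The cut of the RS4;11 lists accounts for most of the newcomers. Of the 4435 RCH-open regions with equal lists, 1186 (26.7%) had a weaker deposited peak of a KMT2A-AFF1 line, in RS4;11 at 1183 places and in SEM at 19.

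Each KMT2A-AFF1 line was also set against RCH alone, with 2 lists against 2. RS4;11 had 17991 regions open in both its lists and neither RCH list (17.7% of the 101700 regions open in either line), and 4937 in the reverse case (4.85%). SEM had 8212 (9.97% of 82374) and 8469 (10.3%). RS4;11 stood far above RCH in number and SEM slightly below it. With equal lists the counts were 9208 (11.9%) and 7223 (9.33%) for RS4;11, and 8372 (10.4%) and 7899 (9.86%) for SEM. Both lines then had somewhat more regions of their own than RCH had against them.

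The lines that share the fusion had slightly more open regions in common than RS4;11 and RCH had. As deposited, 4032 regions were open in RS4;11 and SEM but not RCH, and 3791 in RS4;11 and RCH but not SEM. SEM and RCH shared only 967 that RS4;11 lacked. With equal lists the 3 counts were 2687, 2557 and 1957. The KMT2A-AFF1 pair was the largest in both forms, and RS4;11 with RCH came close to it. Regions open in RCH alone (3591 and 4435) can be set beside those open in SEM alone, at 2828 and 4482, and in RS4;11 alone, at 10959 and 4818.

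**Figure D1:**
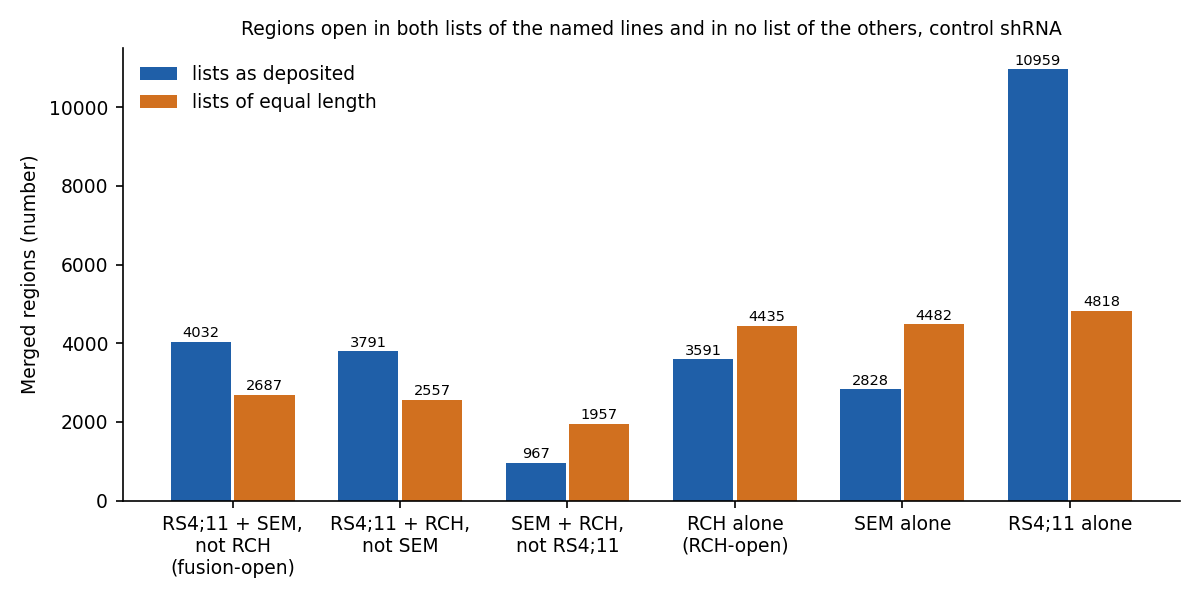
Bars give the number of merged regions (y axis) with a peak in both control lists of the named lines and in no control list of the others (x axis), as deposited and with lists of equal length. The fusion-open bar (4032 and 2687) is close to that of RS4;11 with RCH (3791 and 2557), and RCH-open rises from 3591 to 4435.

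The same counts can be read as shares, which take out the number of regions each line offers. Of the 8212 regions open in SEM and closed in RCH, 49.1% were open in both RS4;11 lists (interval 48.0 to 50.2). Of the 8469 open in RCH and closed in SEM, 44.8% were (43.7 to 45.8). RS4;11 was thus open somewhat more often at the regions of the line that shares its fusion. At equal length the shares were 32.1% (31.1 to 33.1) and 32.4% (31.3 to 33.4), and the intervals overlapped. Seen from the other side, SEM was open at 22.4% of the regions that RS4;11 had and RCH lacked, and RCH at 21.02% of those that RS4;11 had and SEM lacked. With equal lists these were 29.2% (28.3 to 30.1) and 27.9% (27.0 to 28.8). As deposited the fusion pair was ahead in both readings. At equal length the intervals overlapped in both, and the lead differed between them.

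Regions that missed a class by 1 list outnumbered those inside it. A further 3963 regions had peaks in all 4 KMT2A-AFF1 lists and in 1 RCH list. Another 4352 had peaks in 3 of the 4 lists and none in RCH, and in 3000 of them the missing list was one of SEM. For RCH-open, 1466 regions had both RCH peaks and 1 peak of the other lines (1087 from RS4;11 and 379 from SEM), and 8945 had 1 RCH peak alone.

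Members were weaker and narrower than regions open everywhere. At the 27124 regions open in all 6 lists, the median fold was 11.3 and 10.7 in the RS4;11 lists, 8.27 and 8.35 in SEM, and 8.17 and 8.19 in RCH. At fusion-open regions it was 6.86 and 6.30 in RS4;11 and 5.58 and 5.56 in SEM. At RCH-open regions it was 5.43 and 5.14 in RCH. This was not particular to members, since the other classes open in only some lines were also below regions open in all 6 lists. Regions open in RS4;11 alone had 5.62 and 5.31 in RS4;11, and those open in SEM alone 5.03 and 5.10 in SEM. Those of RS4;11 with RCH had 7.25 and 6.64 in RS4;11. The rule sorts regions by whether a peak was called, so this gap in strength is not independent of it. Within their own lists, fusion-open peaks stood at a median percentile of 51.7 and 44.4 in RS4;11 and of 38.7 and 39.3 in SEM, and RCH-open peaks at 40.8 and 34.6 in RCH. Peaks among the top 10% of a list were rare among members. They made up 4.17% and 2.70% of fusion-open peaks in RS4;11, 0.818% in each SEM list, and 1.95% and 1.42% of RCH-open peaks. Merged fusion-open regions had a median width of 464 bp and RCH-open regions of 366 bp, against 722 bp for regions open in all 6 lists. A merged region joins more lists in the first case than in the second, which widens it.

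The sh2 lists, which the rule did not use, separated both classes again. Fusion-open regions had a peak in 76.0% and 77.8% of cases in the RS4;11 sh2 lists and in 83.6% and 82.5% in the SEM sh2 lists, but in 12.1% and 10.4% in the RCH sh2 lists. RCH-open regions had one in 3.62% and 3.95% of cases in RS4;11 sh2 and in 5.29% and 5.54% in SEM sh2, against 49.8% and 47.5% in RCH sh2. In every sh2 list the class of its own line was thus far above the other class. This was not particular to the 2 classes. Regions open in RS4;11 alone had a peak in 47.4% and 50.2% of cases in RS4;11 sh2. They had one in 18.2% and 16.9% in SEM sh2 and in 3.27% and 2.54% in RCH sh2. Regions open in SEM alone had 71.4% and 66.3% in SEM sh2, 9.30% and 10.3% in RS4;11 sh2, and 11.0% and 8.98% in RCH sh2. Regions open in all 6 control lists had a peak in 96.3% to 97.4% of cases in the RS4;11 and SEM sh2 lists, and in 87.1% and 84.3% in RCH sh2. The RCH sh2 lists were also the shortest, at 43043 and 40506 peaks.

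**Figure D2:**
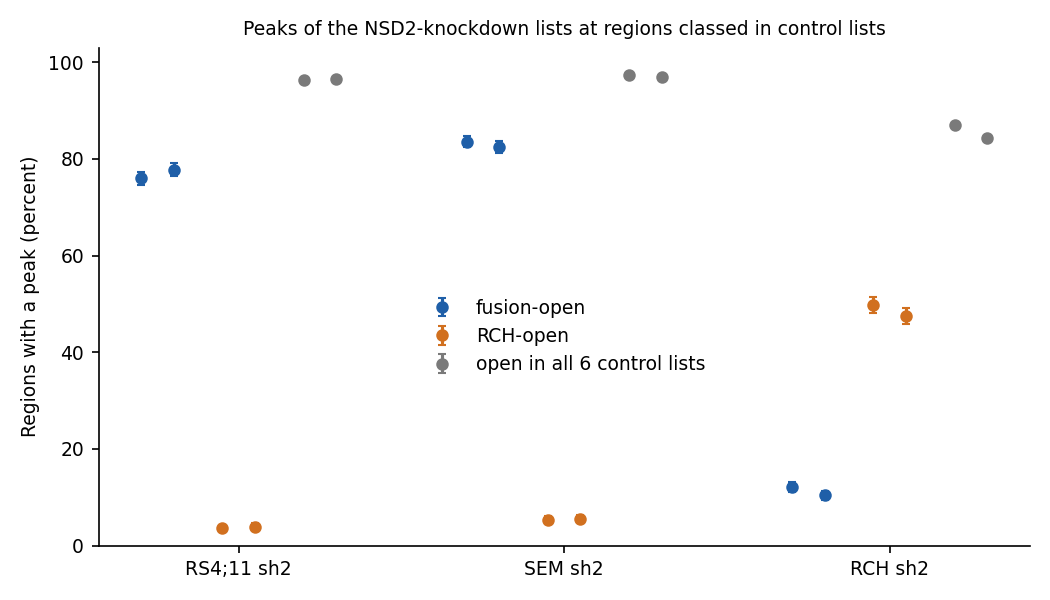
Each point is 1 sh2 peak list (x axis, 2 lists per line), and the y axis is the percent of the regions of a control class with a peak there, with exact 95% intervals. Fusion-open regions sit between 76.0% and 83.6% in RS4;11 and SEM and near 11% in RCH, and RCH-open regions between 3.62% and 5.54% against 47.5% to 49.8% in RCH.

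Applied to the 6 sh2 lists, the same rule kept 1845 of the 4032 fusion-open regions (45.8%, interval 44.2 to 47.3) and 1151 of the 3591 RCH-open regions (32.1%, 30.5 to 33.6). Only 4 fusion-open regions became RCH-open and 2 RCH-open regions became fusion-open. Most of those not kept lost a peak in their own line rather than gained one in the other. Of fusion-open regions, 83.1% had no peak in either RCH sh2 list, while 56.8% had one in all 4 KMT2A-AFF1 sh2 lists. Of RCH-open regions, 86.8% had none in the 4 KMT2A-AFF1 sh2 lists, while 37.6% had one in both RCH sh2 lists and 35.7% had none in any sh2 list. With control lists of equal length and sh2 lists as deposited, 55.2% of fusion-open and 27.8% of RCH-open regions kept their class. The order of the classes turned when the sh2 lists were reduced to the 40506 peaks of the shortest of them. Of the deposited classes, 840 fusion-open (20.8%) and 1226 RCH-open regions (34.1%) were then kept. With both sets of lists at equal length the shares were 30.5% and 33.1%. Which class was kept more often thus depended on the length of the sh2 lists. Without RCH NT list 1 or list 2 the share of RCH-open regions kept was 18.1% and 15.1%.

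How often a member kept its peak followed its strength. RCH-open regions were placed in 4 bands of 25 percentiles by the mean percentile of their RCH NT folds. In the weakest band 20.7% of 1058 had a peak in both RCH sh2 lists, and in the following bands 32.0% of 1441, 53.3% of 845 and 89.1% of 247. Regions open in all 6 control lists kept theirs in 47.9%, 56.0%, 78.4% and 96.7% of cases in the same bands. RCH-open regions were thus kept less often in each band, with the smallest gap in the strongest. Fusion-open regions rose likewise, from 51.6% in the weakest band to 92.3% in the strongest for RS4;11 and 63.6% to 98.0% for SEM. Regions open in all 6 lists went from 71.1% to 98.8% and 80.4% to 99.9% there.

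RCH-open regions took a larger share of all regions on 2 chromosome arms than on any other, though most of the class lay elsewhere. Arms were split at the longest stretch without a peak in any of the 12 lists, and chromosomes 13, 14, 15, 21 and 22 were left whole. On the short arm of chromosome 7, 176 of 1874 regions were RCH-open (9.39%, interval 8.11 to 10.8) and 26 were fusion-open (1.39%). On the short arm of chromosome 8 they numbered 151 of 1765 (8.56%, 7.29 to 9.96) and 49 (2.78%). The long arms of the same chromosomes were ordinary, with 3.17% RCH-open and 3.14% fusion-open on 7q and 2.75% and 2.90% on 8q. Over all 39 arms or whole chromosomes the median was 3.17% RCH-open and 3.67% fusion-open. With equal lists the RCH-open share was 12.2% on 7p and 10.2% on 8p, against a median of 4.76%.

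Both KMT2A-AFF1 lines contributed to the pattern on 7p and 8p. On 7p, RCH had 229 regions that RS4;11 lacked (12.7%) and 323 that SEM lacked (20.3%), against 4.85% and 10.3% over all chromosomes. On 8p these were 232 (14.6%) and 243 (15.2%). The share of a whole list's peaks that lay on 7p was 1.44% and 1.41% for RS4;11 NT and 1.35% and 1.41% for SEM NT, but 2.25% and 2.16% for RCH NT. RCH thus had more of its peaks there than either other line, and the lists did not overlap. RCH had the highest share in the sh2 lists too, with 1.41% and 1.42% in RS4;11, 1.46% and 1.43% in SEM, and 2.04% and 2.15% in RCH. On 8p the NT lists had 1.18% and 1.18%, 1.65% and 1.67%, and 2.10% and 1.98% in the same order of lines, and the sh2 lists 1.12% and 1.16%, 1.64% and 1.64%, and 2.05% and 1.97%. By number, the sh2 lists had 841 and 867 peaks on 7p in RS4;11, 904 and 860 in SEM, and 876 and 872 in RCH. On 8p they had 665 and 712, 1019 and 984, and 884 and 799 in that order. RCH thus did not lead by number of sh2 peaks on either arm. The RCH sh2 lists were the shortest, which bears on their shares. What sets the share of peaks on these arms was not tested.

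**Figure D3:**
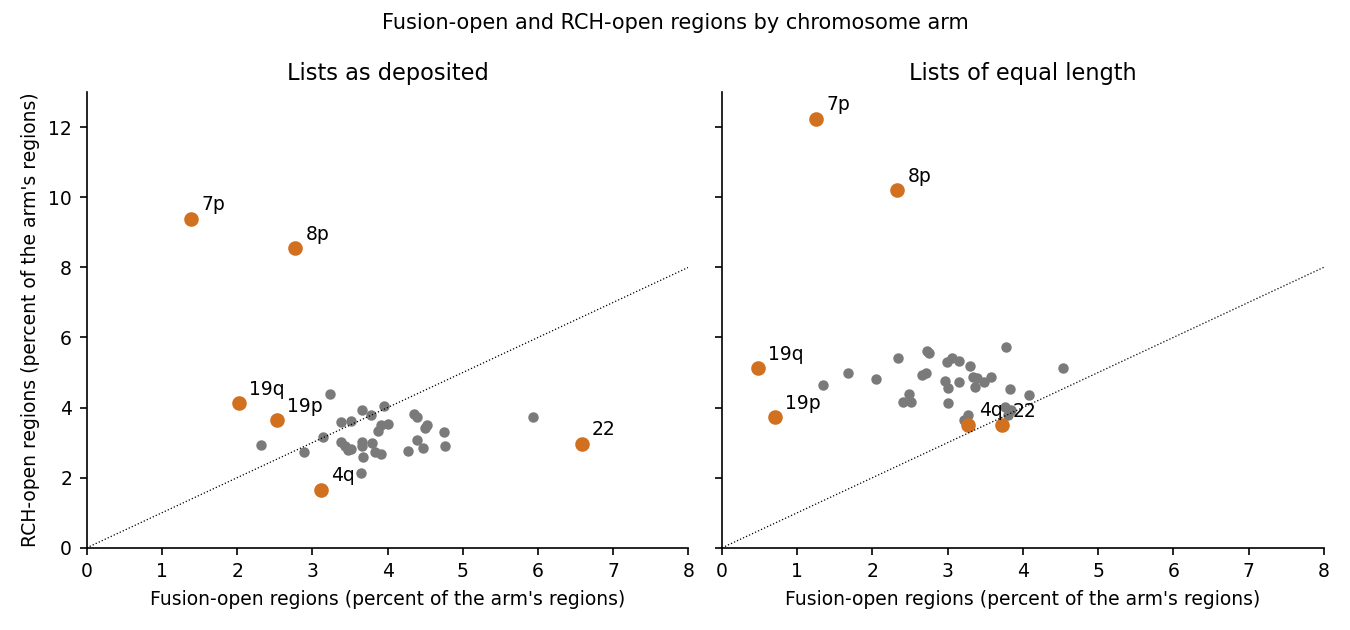
Each point is a chromosome arm or whole chromosome, placed by the percent of its merged regions that were fusion-open (x axis) and RCH-open (y axis); the dotted line marks equal shares. The arms 7p and 8p stand apart at 9.39% and 8.56% RCH-open as deposited and at 12.2% and 10.2% with lists of equal length.

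Chromosome 22 leaned the other way as deposited, where 6.58% of 1550 regions were fusion-open and 2.97% RCH-open. With equal lists it had 52 and 49 regions. Fusion-open was then 51.5% of its members (interval 41.3 to 61.6), down from 68.9% as deposited but above the 37.7% of all chromosomes. Chromosomes 4 and 6 also leaned to fusion-open as deposited, with 63.7% and 61.3% of their members in that class. With equal lists they had 48.3% and 48.6%, still above the 37.7% of all chromosomes. Chromosome 19 leaned to RCH-open in both forms. Its regions were 2.28% fusion-open and 3.88% RCH-open as deposited, and 0.587% and 4.42% at equal length. RS4;11 had the smallest share of its NT peaks on both arms of this chromosome, at 0.998% and 1.07% on 19p against 2.02% and 1.94% in SEM and 1.53% and 1.52% in RCH. These are shares of lists of unlike length, and the RS4;11 NT lists were the longest. By number, RS4;11 NT had 814 and 768 peaks on 19p, SEM NT 1059 and 1036, and RCH NT 840 and 840. As deposited the 2 KMT2A-AFF1 lines thus lay on either side of RCH on 19p, and SEM had more regions of its own there against RCH (197) than RCH had against SEM (68). In the sh2 lists the order on 19p was another one, with 1.42% and 1.41% in RS4;11, 1.67% and 1.58% in SEM, and 2.39% and 2.39% in RCH. RCH then had the highest share, so the order of SEM and RCH by share on this arm changed between NT and sh2. By number of peaks these 2 lines were alike on 19p in sh2, at 1035 and 948 in SEM and 1028 and 969 in RCH. The RCH sh2 lists were the shortest, which bears on these shares.

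Within chromosome 19, which is known for clusters of KRAB zinc finger genes, the RCH-open share of regions was highest in a few parts. From 20 to 25 Mb, 15 of 72 regions were RCH-open (20.8%) and 2 were fusion-open. From 30 to 35 Mb, 13 of 129 were RCH-open (10.1%), and from 55 to 60 Mb, 11 of 156 (7.05%). The remaining steps of 5 Mb had 1.33% to 6.90%. With equal lists the first of these parts had 16 of 67 (23.9%). No region was assigned to a gene of these clusters here.

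RCH-open regions also lay closer to chromosome ends than fusion-open ones. The end was taken as the outermost peak of any of the 12 lists, and short arms of chromosomes 13, 14, 15, 21 and 22 were left aside. Within 5 Mb of an end, 613 of 9817 regions were RCH-open (6.24%, interval 5.77 to 6.74), against 2.74% (2.62 to 2.85) beyond 20 Mb. Fusion-open regions took 3.90% (3.53 to 4.30) and 3.61% (3.47 to 3.74) there. At equal length the RCH-open shares were 7.62% and 4.43% and the fusion-open shares 2.57% and 3.13%. Leaving out 7p and 8p gave 5.71% and 2.58% RCH-open as deposited, so these arms did not carry the pattern. The rise toward ends was not particular to RCH. Regions open in SEM alone took 4.15% near ends and 2.13% beyond 20 Mb, whereas regions open in RS4;11 alone took 5.72% and 10.8%. At equal length SEM alone took 7.22% (6.69 to 7.79) and 4.39% (4.23 to 4.55), with intervals that overlapped those of RCH-open.

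**Figure D4:**
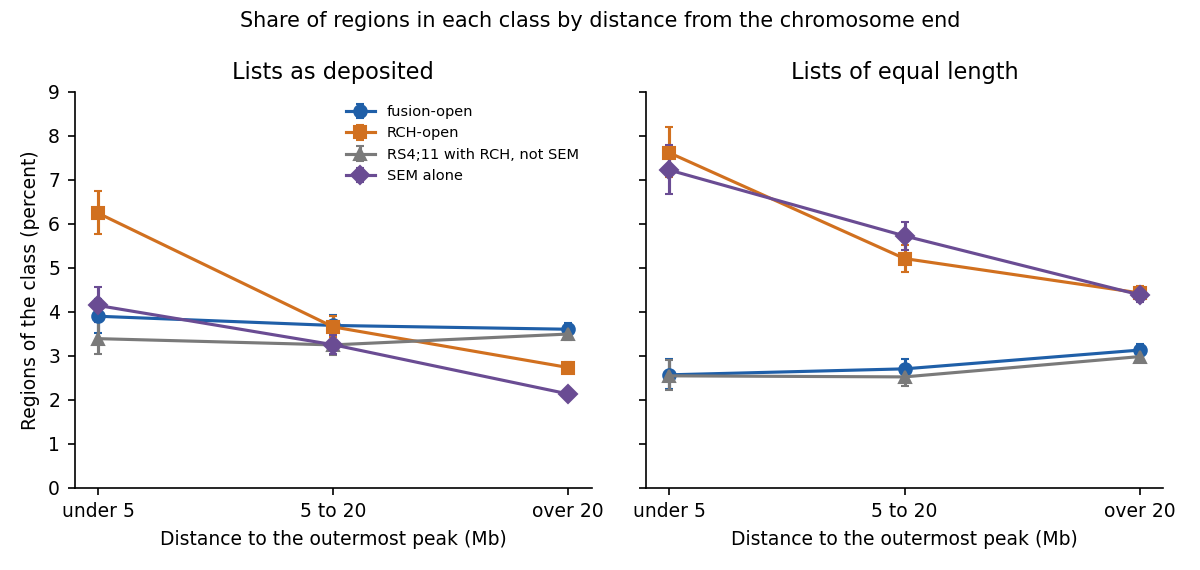
The x axis groups regions by distance to the outermost peak of their chromosome in Mb, and the y axis gives the percent of the group's regions in each class, with exact 95% intervals. RCH-open falls from 6.24% near ends to 2.74% beyond 20 Mb as deposited, and SEM alone falls from 4.15% to 2.13%, while fusion-open stays between 3.61% and 3.90%.

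Fusion-open regions were closer than RCH-open regions to chromatin that is open in all lines. They lay a median of 22.1 kb from the closest region shared by all 6 control lists (quartiles 7.33 and 56.4), and 534 (13.2%) lay beyond 100 kb. For RCH-open regions it was 35.7 kb (12.5 and 88.3), and 791 (22.03%) lay beyond 100 kb. The RCH-open median was larger on 21 of 22 chromosomes. At equal length the medians were 29.8 and 37.9 kb, and RCH-open was farther on all 22. Regions shared by RS4;11 and RCH had a median of 35.4 kb and 40.5 kb in the 2 forms, close to RCH-open. Regions shared by SEM and RCH had 36.4 kb as deposited and 25.6 kb at equal length, the latter nearer than fusion-open. Regions open in SEM alone were the nearest, at 19.9 and 20.5 kb.

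Members of a class seldom adjoined each other. Another member lay within 10 kb for 382 fusion-open regions (9.47%) and for 403 RCH-open regions (11.2%). At equal length the shares were 6.10% and 11.4%. Regions shared by RS4;11 and RCH had 6.91% as deposited and 4.46% at equal length. In windows of 1 Mb, 1851 of 2727 windows held a fusion-open region, 1714 an RCH-open region and 1161 both. At most 10 fusion-open or 13 RCH-open regions fell in 1 window.

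The 5 windows with the largest excess of RCH-open over fusion-open regions all held no fusion-open region as deposited, which ranking by excess favours. The window from 137 to 138 Mb of chromosome 9 held 13 among 63 regions, and 11 with equal lists. That from 2 to 3 Mb of chromosome 8 held 11 among 45, that from 187 to 188 Mb of chromosome 4 held 11 among 52, and that from 2 to 3 Mb of chromosome 7 held 11 among 97. The window from 133 to 134 Mb of chromosome 10 held 10 among 29. In this last window RCH NT had 23 peaks in each list, RS4;11 NT 10 and 8, and SEM NT 3 and 3. RCH sh2 had 26 and 23 there, RS4;11 sh2 10 and 9, and SEM sh2 5 and 4. The counts of each line in sh2 were thus close to those in NT in this window, but not in all 5. From 187 to 188 Mb of chromosome 4, RS4;11 had 24 and 21 peaks in NT and 8 and 11 in sh2. From 2 to 3 Mb of chromosome 8, it had 20 and 18 in NT and 12 and 12 in sh2, and RCH had 31 and 31 in NT and 30 and 19 in sh2.

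The 5 windows with the largest excess of fusion-open regions were milder. From 64 to 65 Mb of chromosome 11, 9 of 110 regions were fusion-open and none RCH-open. From 66 to 67 Mb of chromosome 1 it was 8 of 56, and from 40 to 41 Mb of chromosome 21 also 8 of 56, again with no RCH-open region. The window from 93 to 94 Mb of chromosome 14 had 10 fusion-open and 2 RCH-open regions among 63, and that from 126 to 127 Mb of chromosome 10 had 9 and 1 among 76. With equal lists these 5 windows held 5, 7, 4, 7 and 4 fusion-open and 0, 2, 0, 2 and 1 RCH-open regions.

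Some RCH-open regions formed runs without a single peak of the KMT2A-AFF1 lines. At least 5 regions open in both RCH lists, with no RS4;11 or SEM control peak between them, were found in 5 stretches. The run with the most such regions counted 11 over 329.5 kb, the shortest span of the 5, at chr10:132889370-133218879. RCH NT had 12 and 16 peaks there and RCH sh2 16 and 11, and no list of RS4;11 or SEM had any, sh2 included. At chr9:137809675-138180138 there were 7 such regions. RCH sh2 had 7 and 7 peaks in that stretch, RS4;11 sh2 had 0 and 2, and SEM sh2 1 and 0. The other 3 held 5 regions each, at chr1:2529053-2929592, at chr5:2739338-3134448 and at chr11:70795195-71159194. In the reverse direction 1 stretch was found, at chr10:82895632-83426049. It held 5 fusion-open regions, and all 4 RCH lists, NT and sh2, had 0 peaks there. A fusion-open region needs 4 peaks and an RCH-open region 2, so the numbers of stretches in the 2 directions are not like counts.

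A stretch without peaks of 1 KMT2A-AFF1 line can also feed the RCH-open class. By the same minimum of 5 regions open in both RCH lists, 13 stretches had no RS4;11 control peak and 56 had no SEM control peak. Some of the runs above are among them. The RS4;11 NT lists were longer than those of SEM NT, so the 13 and the 56 are not like counts. At chr9:19918595-25103500, a span of 5185 kb, all 4 lists of RS4;11 had 0 peaks, whereas SEM NT had 96 and 90 and RCH NT 80 and 81. Of the 59 regions open in both RCH lists there, 48 were open in both SEM lists and 9 were RCH-open. No fusion-open region can arise in such a stretch.

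The highest-ranked members were open in the sh2 lists of their own lines almost without exception. For each class, the 10 regions with the highest mean percentile of fold were taken from those that held their class in both forms. Members of the strongest band mostly kept their peaks in sh2, as described above, so ranking by fold favours this outcome. The 10 fusion-open regions had mean percentiles of 92.1 to 95.8 and widths of 464 to 1138 bp. All 10 had a peak in both sh2 lists of RS4;11 and of SEM, and 9 had none in RCH sh2. The 10 RCH-open regions had mean percentiles of 96.6 to 99.5 and widths of 398 to 821 bp. None had a peak in any KMT2A-AFF1 sh2 list, and 9 had one in both RCH sh2 lists. The percentiles average 4 lists in the first case and 2 in the second, so they do not rank one class above the other.

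The first fusion-open region lay at chr5:135251954-135252727. RS4;11 NT had folds of 16.9 and 15.3 there, and SEM NT 13.9 and 14.1. Its sh2 folds were 16.1 and 15.7 in RS4;11 and 12.6 and 15.05 in SEM, and no RCH list had a peak. It lay 24.95 kb from the nearest region open in all control lists. The second, at chr1:248100171-248100865, had folds of 18.1 and 15.97 in the SEM NT lists and 14.2 and 15.7 in those of RS4;11. The third, at chr13:42196909-42197614, had 23.1 and 22.5 in RS4;11 and 10.99 and 12.7 in SEM. Folds of different lines are given side by side only as the lists hold them.

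At chr9:17795602-17796197, RS4;11 NT had folds of 19.1 and 20.5 and SEM NT 11.8 and 11.96. In sh2 the RS4;11 folds were 7.94 and 6.52 and those of SEM 10.6 and 10.8. It was the only one of the 10 whose RS4;11 sh2 folds were both below 10. At chr4:47034402-47035115 RS4;11 NT had 15.03 and 15.2 and SEM NT 11.6 and 15.9, and RCH sh2 list 1 had a peak of 4.51. The other 5 lay at chr1:55352356-55353397, chr6:15569448-15570157, chr21:27804706-27805169, chr4:9809603-9810147 and chr12:66134591-66135728.

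Of the 10 RCH-open regions, 3 lay on chromosome 19 between 20 and 25 Mb. The highest of all, from 21182439 to 21183259, had folds of 19.6 and 18.3 in RCH NT and 14.4 and 9.62 in RCH sh2. The others lay from 21751864 to 21752549, with 18.1 and 14.9 in RCH NT, and from 22034426 to 22035160, with 17.8 and 14.7. They make part of the group of 15 RCH-open regions in that step of chromosome 19 described above. Another 2 lay on chromosome 7, from 133811664 to 133812429 with 17.1 and 15.8, and from 16890538 to 16891164 on the short arm with 15.9 and 15.7.

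At chr2:139293785-139294593 the folds were 18.0 and 16.8 in RCH NT and 12.02 and 11.3 in RCH sh2. The region on the same chromosome from 227173680 to 227174316 had 16.8 and 13.7 in NT and 7.02 and 5.28 in sh2. That at chr1:118860415-118860812 had 15.1 and 14.8 in NT and a peak in only 1 RCH sh2 list, of 4.51. These last 2 had the lowest sh2 folds of the 10. The remaining regions lay at chr13:20138889-20139539 and at chr16:35032982-35033721. The latter was 1069 kb from the nearest region open in all control lists, against 13.5 to 92.5 kb for the other 9.

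**Figure D5:**
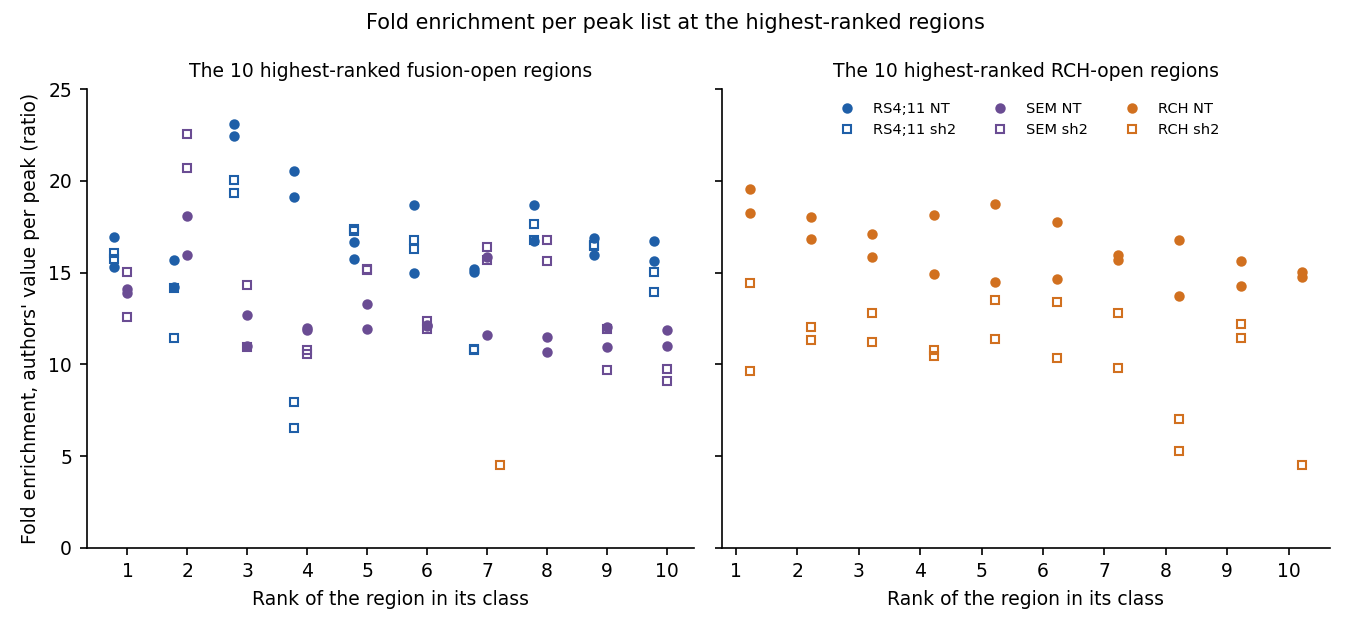
The x axis is the rank of a region within its class and the y axis the authors' fold enrichment of its peak in each list (filled circles NT, open squares sh2, 2 lists per sample); folds are not normalized between lists, and a list without a peak has no point. RS4;11 and SEM carry every point at the fusion-open regions except a single RCH sh2 peak of 4.51, and all points at the RCH-open regions are from RCH.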

How the data were processed

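The deposited files are peak lists of ATAC-seq, 2 per sample, without headers. Per the submitters' processing notes, Bowtie2 and MACS2 were used on hg19. No source used here gives their versions and settings, duplicate removal or any shift for the transposase offset. Each peak carries a value deposited by the authors, taken from its range to be a fold enrichment, a ratio within its list.

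From these lists, peaks on chromosomes 1 to 22 were merged where they touch or overlap (minimum overlap 1 bp), which left out 12744 peaks of the control lists on X and Y. bedtools 2.31.1 gave the same 110435 regions. The members and the arm, end, window and stretch summaries were chosen with earlier results of these data known. Regions named are the 10 per class, and windows the 5 per class, ranked as described with them. Stretches, chromosome 19 steps and end distances were chosen after values were seen. Intervals are exact binomial (Clopper-Pearson) at 95%, and those of medians use order statistics. Samples were grouped by title. Gene lists that had been planned, and sequences, are not analysed here for want of hg19 annotation and genome. Alternatives were other list lengths, a higher fold, overlap, distance, joining, and lists or lines left out. The code for classes and distances was checked on simulated lists with planted regions. Those lists had no missed peaks, so they say nothing on errors in the real classes. Software: scipy 1.17.1, pandas 2.3.3, numpy 2.4.6 and matplotlib 3.10.9 under Python 3.11.15.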

Additional observations from a re-analysis of the deposited data

Results flagged for a closer look

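Chromosome X lies outside the comparison and holds members of both classes by the same rule. Among 4166 regions there, 114 were fusion-open (2.74%) and 74 RCH-open (1.78%). The fusion-open share of the 188 was 60.6% (exact 95% interval 53.3 to 67.7), against 52.9% on chromosomes 1 to 22 as deposited. With equal lists the latter was 37.7%, and no equal-length form is given for chromosome X. No control level exists for these counts.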

How the results depend on the processing

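The settings below were planned. A count was called moved only at a ratio of 1.5 or more, whereas shares and distances were called moved at smaller changes. Values are given in the order fusion-open count, RCH-open count, fusion-open share of both classes, share of fusion-open and of RCH-open regions kept in sh2, median distance of fusion-open and of RCH-open regions, and fusion-open share on chromosome 7, and only those that moved are printed. As reported they were 4032, 3591, 52.9%, 45.8%, 32.1%, 22.1 kb, 35.7 kb and 33.8%. With equal lists they were 2687 fusion-open regions, a share of 37.7%, 55.2% and 27.8% kept, 29.8 kb for fusion-open and 23.7% on chromosome 7. With only the RS4;11 lists cut, to the mean length of the others, they were 2686, 35.8%, 54.3%, 26.9%, 28.7 kb and 22.8%. The share of the classes thus turned below 50% under both cuts. Only peaks above the pooled median fold of 6.37 gave 2205, 1362, 61.8%, 39.6% of RCH-open kept, 55.6 kb, 78.0 kb and 40.8%. A cover of 50% gave a share of 55.6%, 40.3% of fusion-open kept, 33.3 kb and 54.9 kb. A distance of 1 kb from peaks of the other side gave 26.3 kb and 39.6 kb. RS4;11 against RCH, merged alone, gave 18248 fusion-open regions, 78.5%, 42.1%, 38.5%, 24.25 kb for RCH-open and 71.2% on chromosome 7, above 50%. SEM against RCH gave 8300, 8549, 49.3%, 55.2%, 26.1%, 19.3 kb and 32.2 kb. Joining peaks within 100 bp moved none of them. Counts below that ratio also shifted. RCH-open was 4435 with equal lists and 4811 with only the RS4;11 lists cut, and fusion-open was 4779 at a cover of 50%. With 1 list left out, the counts were 4421 to 6809 and 3773 to 9195, the share 42.2% to 59.9%, the shares kept 38.7% to 44.4% and 15.1% to 31.2%, the distances 18.7 to 22.3 kb and 31.8 to 41.4 kb, and chromosome 7 gave 26.4% to 43.8%. The share fell below 50% without RCH list 1 (42.2%) or list 2 (42.5%). RCH-open regions were the farther class under every setting run. No paired analysis was possible because the labels give no replicate numbers and no test was made. Depth is unknown, so an absent peak shows only that none was called.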
